A study of Mus musculus with 5 samples.

Results

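Interferon-stimulated genes are transcribed when a cell receives an interferon, a cytokine of antiviral and antibacterial defence. A list of 42 of them, chosen by symbol, was followed through mouse kidneys after injury with aristolochic acid I (AAI), a plant toxin that damages the proximal tubule. Of the 42 genes, 41 were among the 32285 genes of the count files, and each of the 41 had reads with unique molecular identifiers (UMIs, each of which marks a captured RNA molecule) in every library. Mx1, a dynamin-like antiviral GTPase, was not among them and was not analysed here. Kidneys were Wild-Type. By the study's methods the animals were C57BL/6 males, 8 to 10 weeks of age. The AKI (acute kidney injury) group was taken at week 2, after AAI at 3 mg per kg every 3 days, and the CKD (chronic kidney disease) group at week 4, after the same injections and a pause. The control group, labelled week 0 here, received vehicle. There were 5 droplet libraries, 1 from control, 2 from AKI and 2 from CKD kidneys. The sample sizes in the study's methods equal these numbers of libraries. Whether a library pooled animals is not stated there, and p-values measure the spread between libraries.

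Type I interferons (interferon alpha and beta) and interferon gamma bind separate receptors, whose JAK kinases phosphorylate STAT proteins. STAT2 and IRF9 act after type I interferon and bind, within a complex, a promoter element with repeated GAAA letters. Products of the induced genes sense viral RNA and DNA, bind or degrade RNA, hold virus particles at the membrane or, like the guanylate-binding proteins, attack the vacuoles of intracellular pathogens. In the injured kidney such genes are known to be induced in leukocytes, endothelium and tubule cells.

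The promoter letters were searched for a motif that part of the listed genes hold. RefSeq promoters (GRCm38.p6, 250 bases before to 50 after the start) were found for 34 of the 42 genes. The motif GAAANNGAAA, on either strand (TTTCNNTTTC), was in 20 of the 34, against 3.99% of the 27025 genes with a promoter in the table. By role, the motif was in 5 of 6 GTPases, 4 of 5 IFIT genes, 5 of 8 sensors, 2 of 4 signalling genes and 4 of 11 other effectors. Among genes that were lower in CKD macrophage-like cells (below), 16 of 23 promoters held it, and among the other tested genes 4 of 11. A match is a run of letters, not a shown binding site. The last 150 bases before the start are printed for Ifit1, Isg15, Rsad2 and Gbp2, which carry much of what follows, 5′ to 3′ along the gene, with the motif in capitals. The stretches are chr19:34640739-34640888 (plus strand), chr4:156200819-156200968 (minus), chr12:26456453-26456602 (minus) and chr3:142620513-142620662 (plus).
Ifit1: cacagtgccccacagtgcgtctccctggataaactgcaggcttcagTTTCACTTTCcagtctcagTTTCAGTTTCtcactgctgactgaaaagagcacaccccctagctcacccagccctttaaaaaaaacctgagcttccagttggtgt
Isg15: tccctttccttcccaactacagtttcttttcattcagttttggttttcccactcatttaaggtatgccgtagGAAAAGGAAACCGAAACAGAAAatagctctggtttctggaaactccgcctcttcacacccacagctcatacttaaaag
Rsad2: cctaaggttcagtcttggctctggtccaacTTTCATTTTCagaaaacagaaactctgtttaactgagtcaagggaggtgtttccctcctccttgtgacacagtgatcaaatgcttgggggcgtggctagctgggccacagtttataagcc
Gbp2: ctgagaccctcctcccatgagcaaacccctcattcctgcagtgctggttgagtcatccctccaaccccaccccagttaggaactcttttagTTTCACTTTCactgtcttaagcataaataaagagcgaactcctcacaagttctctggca
Ifit1 had 2 separate matches, Isg15 3 of which neighbours overlap, and Rsad2 and Gbp2 1 each.

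After filters and removal of doublets, 53718 cells remained, with 54931442 to 78994493 UMIs per library and a median of 2908 to 5636 UMIs per cell. Clusters built without the listed genes were named by markers. They held 23699 T lymphocyte-like, 6199 macrophage-like, 5069 proximal tubule-like and 3417 endothelial-like cells, besides smaller classes. The control library stood apart. Of its barcodes, 38.7% exceeded the limit of 30% mitochondrial UMIs, against 11.1 to 12.7% elsewhere, and 112 of its kept cells shared a barcode with a CKD 2 cell. Without the control cells that share a barcode with any library, the numbers of listed genes called in AKI against control were the same as with them. Levels below are UMIs per 10000 UMIs of the class in a library, as 3′ counts, and their intervals cover counting error only. An exact permutation test of 2 against 2 libraries cannot go below a 2-sided p of 0.333, and single summed levels were therefore left untested.

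Of the whole classes, endothelial-like cells had the highest summed level of the 41 genes in each library. They held 66.1 UMIs per 10000 in the control, 68.6 and 68.8 in AKI 1 and AKI 2, and 55.1 and 59.5 in CKD 1 and CKD 2. Macrophage-like cells held 41, 43.9, 40.6, 29.0 and 23.2 in the same order of libraries. T lymphocyte-like cells held 24.3, 36.8, 37.0, 38.0 and 33.8. The macrophage level was thus alike in control and AKI and lower in both CKD libraries, while the T level was lowest in the control and overlapped between AKI and CKD. Distal convoluted tubule-like cells were at 1.21 in the control and at 10.9, 14.3, 12.4 and 15.6 afterwards. Of the 1639 cells of this class, 1107 were in shallow cluster 17, at 0.40 of the library median UMIs. It was led by Slc12a3, Abca13 and Slc12a1, the last a marker of the thick ascending limb. Its marker score was 3.81 for the distal convoluted tubule and 3.29 for the thick ascending limb, so the segments were not cleanly parted there. Proximal tubule-like cells were at 1.54, 7.67, 6.79, 10.4 and 6.73. In these tubule classes the control lay under each injured library, and the mean AKI level was 10.5 and 4.68 times the control level, with a lone control and no test.

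**Figure D1:**
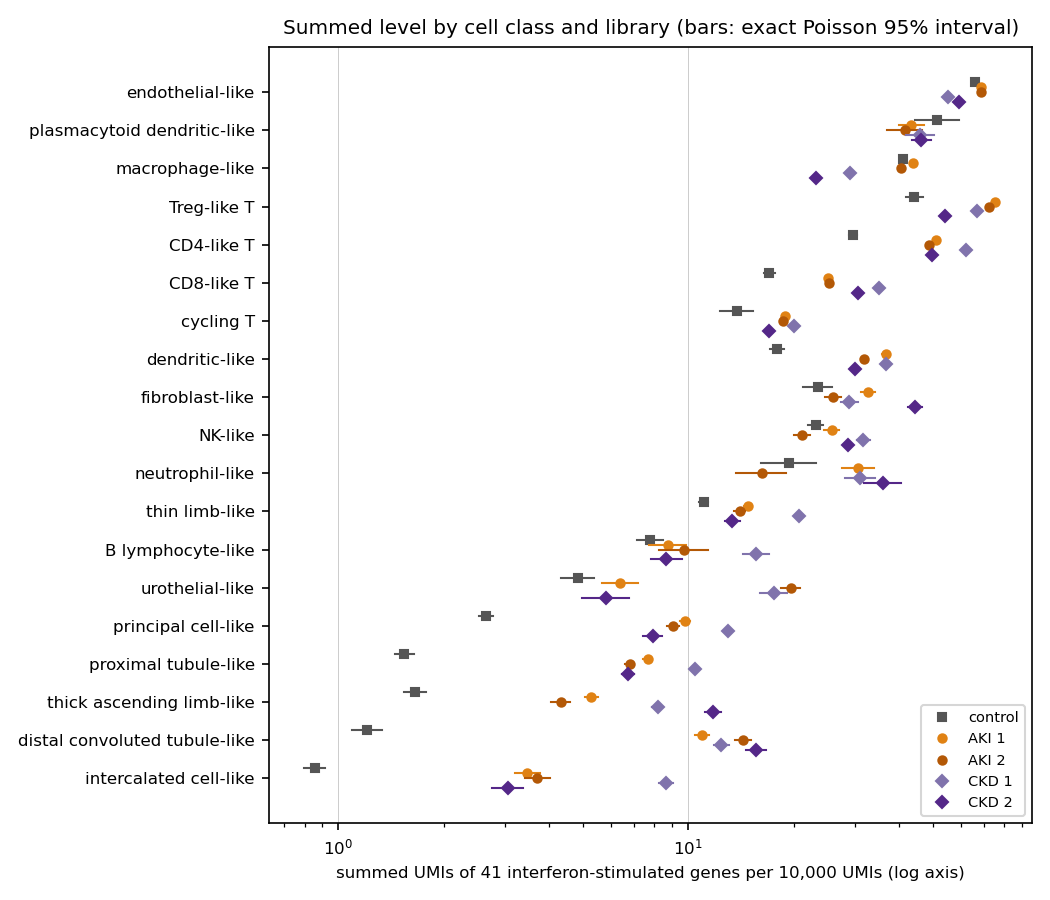
Summed UMIs of the 41 interferon-stimulated genes per 10,000 UMIs (log axis) in each cell class, 1 point per library, with exact Poisson 95% intervals as bars. Macrophage-like points of CKD 1 and CKD 2 (29.0 and 23.2) lie left of the others, and the control points of proximal, thick ascending limb, distal convoluted tubule and intercalated cells lie far left of the injured libraries, for distal convoluted tubule-like cells at 1.21.

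In macrophage-like cells, listed genes of every role were lower in CKD than in AKI. By edgeR's quasi-likelihood test on UMIs summed per library, adjusted over 12688 genes, 27 of the 41 were lower in CKD, 1 was higher and 13 did not pass. Of all genes tested, 16.9% were lower and 15.6% higher in that comparison. The median log2 fold change was −0.87 over the 41 and 0.01 over all genes. DESeq2 called 26. Without AKI 1, 18 were called, among 1908 of 13320 genes.

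Among the 5 signalling genes, all 5 fell. Isg15, a ubiquitin-like protein that is joined to other proteins, was at 6.86 and 6.43 UMIs per 10000 in AKI and at 3.46 and 2.33 in CKD, with 6.13 in the control. Its log2 fold change was −1.38 ± 0.18 (SE, edgeR adjusted p = 0.0024). Usp18, which takes ISG15 off again and dampens the type I receptor, fell by 1.45 on the log2 scale, Stat2 by 1.18, Irf7, which drives interferon genes, by 0.77 and Irf9 by 0.63. Irf7 was at 0.491 and 0.456 in AKI and 0.328 and 0.297 in CKD. For these genes both CKD libraries lay under both AKI libraries.

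Of the 11 sensing genes, 7 fell. Ifih1 encodes MDA5, which senses long double-stranded RNA. It was at 2.16 and 1.70 in AKI, at 0.414 and 0.367 in CKD and at 1.11 in the control, a log2 fold change of −2.48 ± 0.16 (SE, edgeR adjusted p = 0.00037). Oasl1 and Oasl2, relatives of the oligoadenylate synthetases, were at 1.58 and 1.07, and at 0.577 and 0.679, in AKI. In CKD, Oasl1 was at 0.459 and 0.309 and Oasl2 at 0.279 and 0.231. The fall was 1.96 for Oasl1 and 1.48 for Oasl2 on the log2 scale. Zbp1, a sensor of Z-form nucleic acids, and the DNA-binding HIN-200 proteins Ifi206, Ifi209 and Ifi213 fell by 0.40 to 1.37. The classical synthetases did not pass: Oas1a had −0.31, Oas2 −0.65 and Oas3 0.28, and the RNA helicase Dhx58 had −0.60 with an edgeR adjusted p of 0.054.

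The IFIT proteins bind RNA that lacks the marks of host transcripts, and 4 of the 5 genes fell. Ifit2 was at 3.04 and 2.76 in AKI and at 0.720 and 0.463 in CKD. Ifit1 was at 3.55 and 2.96 in AKI and at 1.24 and 0.644 in CKD. Their log2 fold changes were −2.48 ± 0.20 and −1.97 ± 0.28 (SE), Ifit3 had −1.68 and Ifit3b −2.67. The control broke the pattern in opposite ways, with Ifit2 at 6.70, above each other library, and Ifit1 at 0.997, between the CKD libraries. Ifit1bl1, with 5 to 33 UMIs per library, had −1.87 with an edgeR adjusted p of 0.066. Ifit3 and Ifit3b are close copies, so how the counting shared reads between them is uncertain.

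Of 14 other effectors, 7 fell and 1 rose. Rsad2, or viperin, makes a nucleotide that stops viral RNA chains. It was at 6.12 and 6.29 in AKI, at 1.62 and 1.46 in CKD and at 2.55 in the control, and had the smallest adjusted p of the listed genes (−2.19 ± 0.11 SE, edgeR adjusted p = 0.00025). Bst2, or tetherin, holds budding virus at the membrane and was at 4.01 and 4.10 in AKI and 2.62 and 2.01 in CKD. Parp14, an ADP-ribosyltransferase, was at 1.14 and 1.02 in AKI and 0.471 and 0.464 in CKD. Rtp4, Trim30a, Slfn5 and Phf11d fell by 0.72 to 0.88 on the log2 scale. Ifi27l2a, a small membrane protein and the listed gene with the most UMIs in these cells, went the other way, from 5.06 and 4.39 in AKI to 11 and 8.74 in CKD, with 6.86 in the control. Its log2 fold change was 0.89 ± 0.14 (SE, edgeR adjusted p = 0.0053). It made up 22.8% of the listed UMIs of the class.

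Of the 6 GTPases, 4 fell. These are genes on which interferon gamma is known to act strongly. Gbp5, which promotes inflammasome assembly, was at 0.417 and 0.405 in AKI and 0.187 and 0.207 in CKD. Gbp3 was at 0.755 and 0.739 against 0.387 and 0.426, and Gbp2 at 1.12 and 1.03 against 0.596 and 0.772. Igtp fell by 0.50 on the log2 scale. Gbp7 had −0.41 (edgeR adjusted p = 0.074) and Ifi47 −0.15, and neither passed. The control was under both groups for Gbp2 (0.409) and Gbp5 (0.122).

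**Figure D2:**
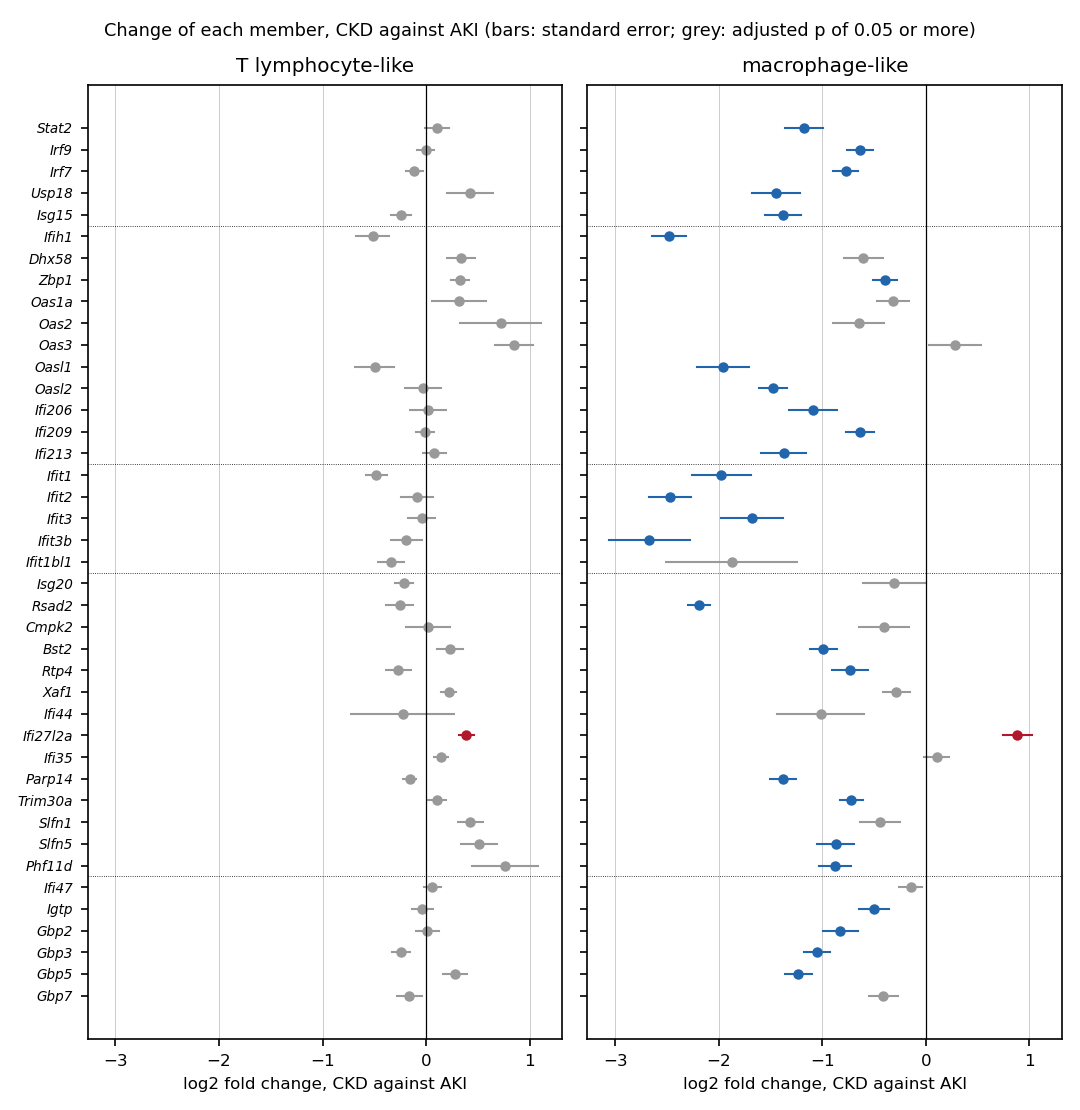
Log2 fold change, CKD against AKI, of each of the 41 genes in T lymphocyte-like (left) and macrophage-like cells (right), as points with standard errors; blue or red points passed the edgeR test, and dotted lines part the roles. On the right 27 points are lower and 1 (Ifi27l2a) is higher; on the left 1 passed.

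The macrophage-like class was made of different clusters in the groups. AKI cells were mostly in cluster 3 (led by Ccl8, Ccl7, Ccl12 and C1qa), cluster 23 (Ccl6, Lyz2, Fn1) and cluster 25, and CKD cells in clusters 3, 15 (Ctsk, Mmp9, Acp5) and 23. Of CKD 1 and CKD 2 macrophage-like cells, 52% and 44.9% were in 5 clusters led by Ctsk and Mmp9, by cell cycle genes or held nearly whole by CKD libraries, against 13.8 to 14.8% in AKI. Levels and tests rest on UMIs, of which the other clusters held 3998106 of 15002084 in CKD 1 and 4147066 of 14126215 in CKD 2. In AKI they held 8086881 of 8611035 and 11747770 of 13338247. The 5 clusters thus weighed more in the CKD sums than among the CKD cells. The summed level of 7 macrophage markers was 138 and 139 UMIs per 10000 in AKI and 40.7 and 44.6 in CKD. Dissociation and stress genes moved as well: 10 of 12 fell, and their sum was 248 and 229 in AKI and 114 and 106 in CKD. Cell cycle genes rose in 7 of 10. The part of these shifts in the result was not tested beyond the following values.

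Within cluster 3, the largest, which each library filled with 178 to 854 cells, the summed level was 41.9 in the control, 50.3 and 53.7 in AKI and 34.5 and 39.9 in CKD. There edgeR called 0 of 40 listed genes, with 21 at an unadjusted p under 0.05 and a median log2 fold change of −0.70. It called 0% of all 10074 genes there. Rsad2 was at 7.69 and 9.75 in AKI and 2.07 and 4.37 in CKD, Ifit2 at 3.86 and 4.23 against 1.17 and 1.59, and Ifih1 at 2.32 and 2.14 against 0.514 and 0.664. For these genes the libraries still did not overlap, whereas Irf7 (0.676 and 0.729 against 0.590 and 0.737) and Bst2 (3.51 and 3.42 against 3.13 and 3.59) did. The marker sum in cluster 3 was 160 and 168 in AKI, 49.8 in CKD 1 and 130 in CKD 2. CKD 1 also held 54.2 UMIs per 10000 of proximal tubule transcripts there. The listed sum was also lower in CKD in cluster 25 (58.1 and 63.6 in AKI, 52.3 and 41.4 in CKD). Cluster 37 had 28.4, 23.7, 16.5 and 14.9 in that order. AKI and CKD overlapped in clusters 15 (17.2, 18.8, 24.2, 18.2) and 23 (34.3, 28.9, 40.0, 26.7). Cluster 40, with C1qa, Ccl12, Pf4 and Ms4a7 among its leading genes as in cluster 3, was at 58.1 in CKD 1 and 55.9 in CKD 2. It held 1 AKI cell, and its part in the cluster 3 fall was not tested. With the 5 clusters above left out, the summed level was 44.9 and 43.0 in AKI and 37.4 and 34.6 in CKD. The median log2 fold change was −0.38, against −0.87 in the whole class. By edgeR 3 of 41 were then lower (Ifih1 by 1.48, Ifit2 by 1.61 and Rsad2 by 1.08 on the log2 scale). It called 1.23% of all genes, and 17 listed genes were at an unadjusted p under 0.05. In that setting Zbp1, Ifi209 and Irf7 had log2 fold changes above 0.

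In T lymphocyte-like cells the same comparison called 1 of the 41 genes, where 6.76% of 13797 genes were higher and 2.11% lower. Ifi27l2a was at 7.80 and 7.99 UMIs per 10000 in AKI and 10.6 and 10.1 in CKD, with 4.20 in the control (log2 fold change 0.39 ± 0.07 SE, edgeR adjusted p = 0.041). The median over the 41 was 0.01, against −0.02 for all genes, 13 were at an unadjusted p under 0.05, and DESeq2 called 6, among 1790 of the 13797 genes. Without AKI 1 or AKI 2, 0 were called, and 0 of all genes. Without CKD 1, 18 were called among 4756 of 14305 genes, and without CKD 2, 10 among 4024 of 14329, so the listed genes moved with the number of all calls. T lymphocyte-like levels of Isg15 were 5.50 in the control, 9.45 and 8.58 in AKI and 8.23 and 7.05 in CKD. Ifit1 was at 3.23, 6.5, 6.85, 5.32 and 4.30, and Ifit3 at 0.382, 0.892, 0.937, 1.03 and 0.755. Both CKD libraries thus lay under both AKI libraries for Isg15 and Ifit1, without passing the test, and overlapped them for Ifit3. Irf7 was at 0.528 and 0.475 in AKI and 0.465 and 0.464 in CKD. Zbp1 was at 0.717 and 0.629 against 0.868 and 0.825, and Gbp7 at 0.684 and 0.783 against 0.610 and 0.700.

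The T lymphocyte-like class also changed in makeup. Cycling clusters held 3.79 and 4.02% of its cells in AKI and 23.6 and 14.1% in CKD, and they had low levels (13.8 to 20 UMIs per 10000 of the listed genes). The 10 cell cycle genes all rose, and 6 of 12 dissociation and stress genes fell. Without cycling clusters the summed level was 25 in the control, 39.8 and 40.2 in AKI and 50.3 and 42.2 in CKD, so that CKD lay above AKI. Ifi27l2a, the gene that rose above, made up 25.45% of the listed UMIs of the whole T lymphocyte-like class. Its level went from 9.93 and 10.0 in AKI to 16.2 and 14.0 in CKD in CD4-like cells. In CD8-like cells it went from 3.91 and 3.93 to 9.84 and 8.57. Treg-like cells held it at 22.2 and 18.5 in AKI and 23.3 and 20.1 in CKD. In CD4-like and CD8-like cells of CKD 2 the gene rose by more than the noncycling sum did. The place of CKD 2 above AKI thus rests on Ifi27l2a. Without cycling clusters edgeR called 0 of 41, where it called 0.0293% of all genes, with 14 at an unadjusted p under 0.05 and a median of 0.22.

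Subclasses of T cells differed in direction. Treg-like cells, regulatory T cells marked by Foxp3, had the highest summed level of the T subclasses, at 44.2 in the control, 75.4 and 72.4 in AKI and 66.7 and 54.2 in CKD. In them 3 of 38 listed genes fell, where 2.53% of all genes were called. Isg15 was at 16.7 and 15.1 in AKI and 11.9 and 9.35 in CKD, Ifit1 at 13.6 and 15.1 against 10.4 and 7.2, and Gbp3 at 1.71 and 1.74 against 0.982 and 1.11. CD8-like cells went from 25 and 25.2 in AKI to 35.2 and 30.5 in CKD, with 17.0 in the control. In them Ifi27l2a rose (log2 fold change 1.22 ± 0.09 SE), 1 of 41 where 0.0576% of all genes were called. Its level went from 3.91 and 3.93 in AKI to 9.84 and 8.57 in CKD, so much of the change in the CD8-like sum was this gene. By edgeR 19 of the 41 were at an unadjusted p under 0.05, with a median log2 fold change of 0.37. CD4-like cells were at 29.6, 50.9, 48.7, 62.4 and 49.7, and edgeR called 0 of 39 there, with 9 at an unadjusted p under 0.05, where 0.223% of all genes were called. The difference between subclasses was not tested.

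The difference between macrophage-like and T lymphocyte-like cells was tested itself, as the interaction of class and group with the library as a block. The CKD against AKI change was lower in macrophage-like cells for 26 of the 41 genes and higher for 0, where 8.92% of 14382 genes were lower and 7.86% higher. DESeq2 called 21, all lower, among 1491 of 14382 genes. The median was −0.92 over the 41 and 0.04 over all genes. Rsad2 had a difference of −1.90 ± 0.12 on the log2 scale, Ifih1 −1.95 ± 0.11, Ifit2 −2.39 ± 0.20 and Isg15 −1.13 ± 0.16 (SE). Without AKI 1, 10 listed genes were called among 379 of 14769 genes, and without AKI 2, 8 among 320 of 14745. With T lymphocyte-like cells without cycling clusters set against cluster 3, edgeR called 0, with 23 at an unadjusted p under 0.05 and a median of −0.86. Of all 13200 genes in that setting it called 13, each of them higher.

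The genes were not spread evenly over cells. To count cells with many listed UMIs at equal depth, each cell was thinned to 1500 UMIs, and a cell was called high with at least 12 listed UMIs among T lymphocyte-like and 14 among macrophage-like cells. These limits are cuts through a range, not borders of a cell type: 10 to 119 T lymphocyte-like cells per library lay at the limit and 12 to 137 lay 1 UMI under it. Of T lymphocyte-like cells, 6.68% were high in the control (75 of 1122), 15.3 and 15.4% in the AKI pair and 18.5 and 15.9% in the CKD pair. Of macrophage-like cells, 8.44%, 12.3%, 13.4%, 5.07% and 5.67% were high. Cells under 1500 UMIs were left out of these shares. Among macrophage-like cells they were 223 of 875 in the control, 159 of 926 and 182 of 1330 in AKI and 210 of 2319 and 44 of 749 in CKD. In cluster 15 they were 97 of 120 and 100 of 128 in AKI but 54 of 624 and 4 of 214 in CKD. The part of this uneven loss in the shares was not tested. The CKD libraries lay under the control and both AKI libraries among macrophage-like cells, and the control lay under the injured libraries among T lymphocyte-like cells. Without thinning, the shares of the same T lymphocyte-like and macrophage-like cells were 5.44 to 16.5% and 3.94 to 11.5%. Proximal tubule-like cells at the T cell limit gave 0 to 0.822%, on the same 1500 UMIs.

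Of Treg-like cells, 43.9 and 41.8% were high in AKI, 38.2 and 32.8% in CKD and 22.4% in the control. Of CD4-like cells, 22.6 and 21.0% were high in AKI, 33.1% in CKD 1 and 22.1% in CKD 2. CD8-like cells were at 6.23 and 6.00% in AKI and 11.1 and 9.44% in CKD. Cycling T cells were high in at most 5.48%, and 43 of the 64 in the control were too shallow to be thinned. In cluster 3 of the macrophage-like cells, 12.8 and 17.1% were high in AKI, 3.98% in CKD 1 and 9.25% in CKD 2. Cluster 25, whose leading genes include Oasl1, Ifit2, Ifih1 and Ifnb1 although the listed genes did not enter the clustering, had 20.8 and 23.8% high cells in AKI and 25.5 and 12.3% in CKD. Intervals for cluster 25 in CKD 1 ran from 13.9 to 40.4%, on 47 cells, so no order of its libraries can be read.

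**Figure D3:**
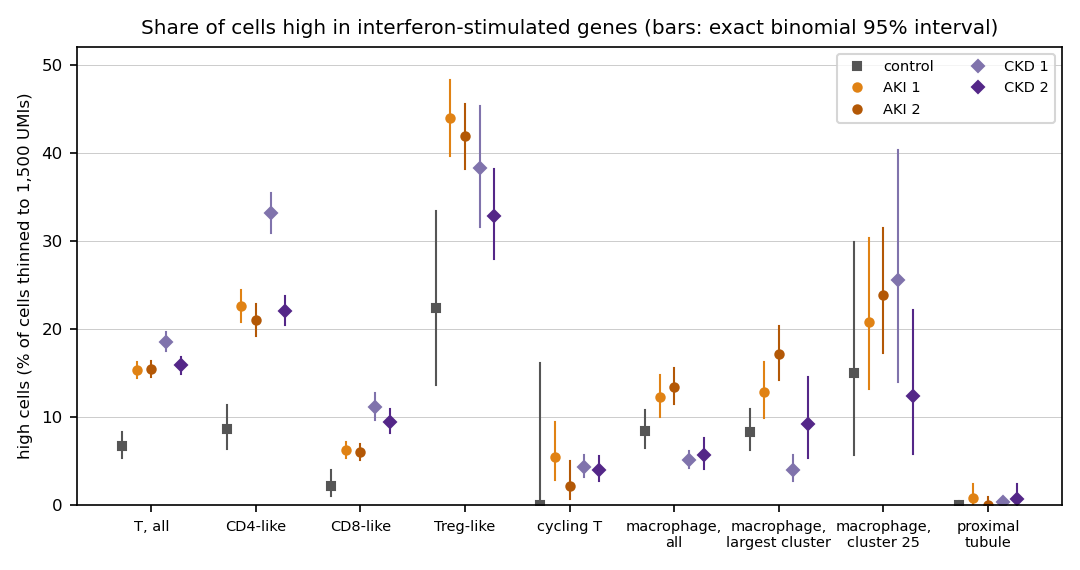
Share of cells (%) with at least 12 (T) or 14 (macrophage) listed UMIs after thinning to 1,500 UMIs, by class and library, with exact binomial 95% intervals; proximal tubule cells use the T limit. Treg-like cells of AKI reach 43.9%, macrophage-like cells of CKD lie at 5.07 and 5.67%, and points of proximal tubule cells lie at 0 to 0.822%.

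The genes seen in high cells are given by class, and the difference between classes was not tested. Of high T lymphocyte-like cells, 90.7 to 95.3% had an Isg15 UMI and 78.9 to 90.2% an Ifit1 UMI, against 25.7 to 44.3% and 15.5 to 25.8% of the other T cells. Rsad2 was seen in 25.1 to 32% of them. Of high macrophage-like cells, 80 to 90.3% had an Isg15 UMI and 30.9 to 72.3% an Ifit1 UMI, 61.7 to 93.5% had Rsad2 and 42.5 to 80% Ifit2, against 12.2 to 26.5% (Rsad2) and 6.32 to 34.2% (Ifit2) of the others. High cells held more of each by construction.

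AKI against control was fitted with all 5 libraries, and the lone control was assumed to vary like the others. These fits share the AKI libraries with the CKD against AKI fits. In T lymphocyte-like cells 8 of 41 were higher in AKI and 1 lower, where 6.23% of 14886 genes were higher and 1.73% lower. Isg20, an exonuclease that degrades RNA, had a log2 fold change of 1.47 ± 0.13, Ifit3 1.33 ± 0.19, Gbp3 1.29 ± 0.13, Ifih1 1.24 ± 0.23 and Ifit1 1.12 ± 0.13 (SE). Ifi27l2a had 0.98, Isg15 0.78 and Parp14 0.59. Isg20 was at 0.319 UMIs per 10000 in the control and at 0.787 and 0.896 in AKI. Slfn5, a Schlafen protein of lymphocytes and other cells, was lower, at 0.199 against 0.0707 and 0.0925. The median over the 41 was −0.01. Without AKI 1 or AKI 2 the fit called 0, and 0 of all genes. Without CKD 1 or CKD 2 it called 22 and 23, among 4288 and 4256 genes in all, against 1184 with every library.

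In macrophage-like cells 7 of 41 were higher in AKI than in the control and 8 lower, where 9.79% of 13745 genes were higher and 4.37% lower. Gbp5 had a log2 fold change of 1.88 ± 0.24, Ifit1 1.83 ± 0.37, Oasl1 1.78 ± 0.34, Gbp2 1.52 ± 0.26 and Rsad2 1.41 ± 0.15 (SE), followed by Ifih1 with 0.92 and Gbp7 with 0.87. Oas2 had −2.04 ± 0.27, Ifi213 −1.74 ± 0.24 and Ifi206 −1.57 ± 0.25, and Irf9, Ifit2, Oasl2, Ifi209 and Xaf1 lay between −1.10 and −0.70. Oas2 was at 0.352 in the control and 0.0917 and 0.0660 in AKI, and Ifi213 at 0.491 against 0.153 and 0.118. The level sum of the 41 genes, alike in control and AKI, thus covered genes that moved in opposite directions. Without AKI 1, 4 were called, without AKI 2, 2, and without CKD 1 or CKD 2, 22 and 21. All genes called numbered 394, 224, 3968 and 3951 in these fits, against 1945 with every library. Dissociation and stress genes summed to 357 UMIs per 10000 in the control macrophage-like cells against 248 and 229 in AKI, and their part was not tested.

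Interferon transcripts were highest in T lymphocyte-, NK- and macrophage-like cells. Of 21 interferon genes in the files, 15 had a UMI and 3 had more than 100. Ifng, encoding interferon gamma, had 60740 UMIs, 87.1% of them in T lymphocyte-like cells, where its level was 4.98 in the control, 4.36 and 4.72 in AKI and 4.02 and 3.54 in CKD. NK-like cells held 8.90, 5.22, 6.25, 7.94 and 6.36. Ifnb1, encoding interferon beta, had 15916 UMIs, 84.8% of them in macrophage-like cells, and Ifna2 had 329, 72% of them there. Ifnb1 was at 4.37 in control macrophage-like cells, at 4.83 and 4.39 in AKI and at 0.936 and 0.608 in CKD, and it fell from AKI to CKD (−2.76 ± 0.20 SE, edgeR adjusted p = 0.00043). Ifna2 fell by 3.72 on the log2 scale, on 49 and 161 UMIs in AKI and 11 in each CKD library. Ifng did not pass in T lymphocyte-like (−0.27) or macrophage-like cells (0.79). Dendritic-like cells held Ifnb1 at 0.352 in the control, 0.967 and 0.645 in AKI and 0.665 and 0.521 in CKD, so in CKD near the macrophage-like level. Within cluster 3, Ifnb1 was at 4.15 in the control, 5.59 and 6.23 in AKI and 1.36 and 2.41 in CKD. Plasmacytoid dendritic-like cells, 66 in all and known for type I interferon in infection, had 0 UMIs of Ifnb1 and Ifna2. The other genes seen were Ifnz (98 UMIs), Ifnl2 (67), Ifnl3 (42), Ifna16 (18), Ifna4 (11), Ifna1 (6), Ifna5, Ifnab and Ifnk (4 each) and Ifna6, Ifna9 and Ifna11 (1 each).

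**Figure D4:**
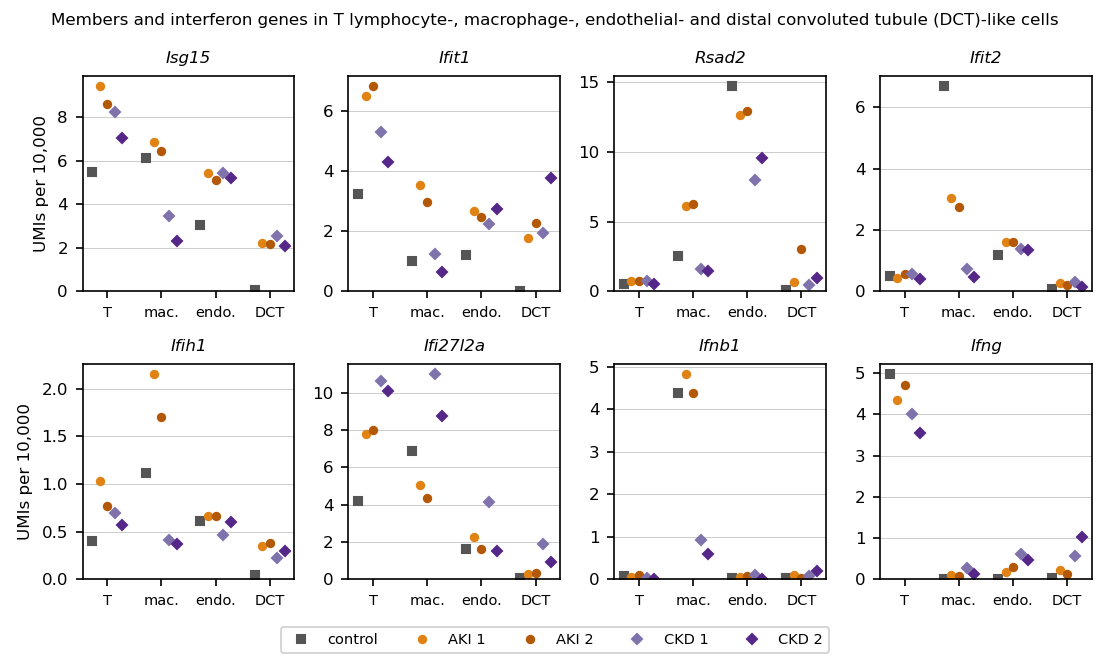
UMIs per 10,000 UMIs (linear axes from 0, own scale per panel) of 6 interferon-stimulated genes, Ifnb1 and Ifng in T lymphocyte-, macrophage-, endothelial- and distal convoluted tubule-like cells, 1 point per library. Rsad2, Ifit2, Ifih1 and Ifnb1 of macrophage-like cells are lower in CKD than in AKI, Ifi27l2a is higher there, and Ifng lies mainly in T lymphocyte-like cells.

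Other genes of the pathway were taken from lists of receptors and kinases, sensors, transcription factors and further interferon-induced genes. In macrophage-like cells, CKD against AKI, where 16.9% of all genes were lower and 15.6% higher, 7 of 8 tested receptors and kinases fell, among them Ifngr1, a receptor chain for interferon gamma (−0.90). Of 15 sensors and adaptors 9 fell, such as Tmem173 (STING, −1.54) and Tlr7, a sensor of single-stranded RNA (−2.11). Of 12 further transcription factors and feedback genes 7 fell and 1 rose, namely Irf8 (−1.87), a factor of myeloid cells, and Socs1 (1.05), an inhibitor of JAK kinases. Of 58 further induced genes 26 fell and 3 rose, with the chemokine Cxcl10 at −1.76. In T lymphocyte-like cells Ifngr1 (−0.60) and Socs1 (−0.62) fell, where 2.11% of all genes were lower. Of the further induced genes 5 of 56 rose, a share near the 6.76% of all genes, among them Lgals3bp (0.44) and the immunoproteasome subunits Psmb9 (0.42) and Psmb10 (0.40).

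In endothelial-like cells Rsad2 and Bst2 had the highest levels of the listed genes. Rsad2 was at 14.7 in the control, 12.6 and 12.9 in AKI and 7.96 and 9.56 in CKD. Bst2 was at 9.82, 8.31, 9.13, 7.80 and 7.88, and Slfn5 at 5.58, 6.09, 5.14, 3.62 and 4.57. Isg15 was at 3.06 in the control and 5.13 to 5.42 in the others. CKD lay under AKI for Rsad2, Bst2 and Slfn5, yet edgeR called 0 of 38 listed genes, with 1 at an unadjusted p under 0.05 and 0 by DESeq2, and it called 0% of all 11026 genes there. High cells at the T cell limit made up 32.0% in the control, 28.7 and 28.4% in AKI, 14.2% in CKD 1 and 26.1% in CKD 2. In plasmacytoid dendritic-like cells Bst2, a known marker of that cell type in mice, made up most of the summed level, with 32.1, 31.1, 27.9, 28.9 and 29.7 UMIs per 10000 against sums of 41.6 to 51.5.

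Dendritic-like cells were at a sum of 17.9 in the control, 36.7 and 31.7 in AKI and 36.7 and 29.9 in CKD. Isg15 was at 2.55 in the control and 7.03 to 9.51 in the others, and Ifit1 at 0.757 against 3.01 to 4.31. AKI and CKD overlapped there, and edgeR called 0 of 40 (2 at an unadjusted p under 0.05, 0 by DESeq2), where 0.123% of all genes were called. NK-like cells were at 23.1, 25.7, 21.2, 31.7 and 28.5, with 0 of 30 called by edgeR (9 at an unadjusted p under 0.05, 0 by DESeq2) where 0.0364% of all genes were called. B lymphocyte-like cells had 7.77, 8.74, 9.72, 15.6 and 8.66 and 8 testable genes, of which edgeR and DESeq2 called 0 (1 at an unadjusted p under 0.05), where 0.0574% of all genes were called.

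Epithelial classes differed in their summed level. Thin limb-like cells were at 11.1 in the control, 14.8 and 14 in AKI and 20.7 and 13.4 in CKD, above B lymphocyte-like cells in each library. Urothelial-like cells, 12 to 108 per library, were at 4.83, 6.39, 19.6, 17.6 and 5.82, so libraries of a group lay far apart. In distal convoluted tubule-like cells Ifit1 was at 0.0186 in the control, 1.78 and 2.29 in AKI and 1.96 and 3.76 in CKD, and Isg15 was at 0.0775 against 2.08 to 2.55. An Ifit1 UMI was found in 5 of 725 control cells (0.69%), in 19.4 and 11.7% of AKI cells and in 22.5 and 13.6% of CKD cells, at a median of 1595 to 2189 UMIs per cell. As a share of the level in T lymphocyte-like cells of the same library, Ifit1 was 27.4 and 33.4% in AKI and 36.8 and 87.6% in CKD. The 8 T lymphocyte markers were at 2.61, 2.02, 11.6 and 13.2% there. The part of free RNA, or of cells joined to a leukocyte, was not tested. Few cells carried much of the signal. In AKI 2 a single cell gave 121 of the 205 Ifit1 UMIs and 181 of the 275 Rsad2 UMIs, and in CKD 2 a single cell gave 91 of 212 Ifit1 UMIs.

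Proximal tubule-like cells, the target of AAI, had Gbp2 at 0.0421 in the control, 0.752 and 1.18 in AKI and 0.465 and 0.527 in CKD. In AKI, macrophage-like cells held Gbp2 at 1.12 and 1.03 and endothelial-like cells at 1.56 and 1.87, so the AKI levels of proximal tubule-like cells were under the endothelial-like ones. Ifit1 was at 0.0453, 0.498, 0.263, 0.661 and 0.363, or 3.84 to 12.4% of the T lymphocyte-like level after injury, where T lymphocyte markers were at 1.58 to 11.9%. CKD 1 had the most T lymphocyte marker RNA in these cells (11.9%) and the highest Ifi27l2a (1.91, against 0.0777 in the control and 0.189 to 0.492 elsewhere). From AKI to CKD edgeR called 0 of 33, with 13 at an unadjusted p under 0.05 and a median of 0.32, and DESeq2 called 1, Gbp2, as lower. Without CKD 2, 14 of 38 were called, 13 of them higher, among 1463 of 12721 genes. Without a filter on low counts 9 of 41 were called, 8 of them higher, among 1076 of 18891 genes. With the replicate block 4 of 33 were called, 3 of them higher, among 465 of 12099 genes. In the main fit 0.785% of all genes were called. In thick ascending limb-like cells the sum was 1.66 in the control, 5.29 and 4.33 in AKI and 8.18 and 11.8 in CKD, and edgeR called 0 of 31 (18 at an unadjusted p under 0.05, 0 by DESeq2), where 0.145% of all genes were called. Of the 383 Gbp2 UMIs in these cells of CKD 2, 342 came from 1 cell.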

How the data were processed

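Single-cell 3′ RNA-seq libraries of kidney were analysed from UMI counts per gene and barcode. The authors deposited whole-number counts without normalization. Per the labels' processing notes, they came from Cell Ranger 7.2.0 with STAR and GRCm39, but the matrix headers for AKI and CKD give a different version of it, and mm10 is named in the control gene list. The 32285 gene rows were the same in each file. The study ran CellBender and a doublet caller after counting. CellBender was not run here, so free RNA remains.

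Barcodes were left out above 30% mitochondrial UMIs or under 200 genes, and doublets were removed by a neighbour score at 0.8% per 1000 cells (672 to 2984 per library). Depth after filters was 54931442 to 78994493 UMIs per library. From log-scaled counts, 3000 variable genes gave 40 principal components without the listed and pathway genes were corrected by library with an algorithm after Harmony, and 15 neighbours were clustered by Leiden at resolution 1.5 (Python 3.11.15, scanpy 1.11.5, leidenalg 0.10.2), giving 51 clusters. Clusters were named by markers.

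UMIs were summed per library and class and tested with edgeR 4.0.16 (R 4.3.3; TMM, filterByExpr, quasi-likelihood test, Benjamini-Hochberg adjustment over all genes tested, call at an adjusted p under 0.05), with DESeq2 1.42.0 as an alternative. Only T lymphocyte-, macrophage-, NK-, B lymphocyte-, dendritic-, endothelial-, proximal tubule-, thick ascending limb- and fibroblast-like cells were chosen for testing. These classes needed at least 30 cells in each AKI and CKD library, so fibroblast-like cells were not tested. Other classes, among them distal convoluted tubule-, principal, intercalated and thin limb-like cells, were not tested whatever their cell number. On simulated data with 200 changed genes, the CKD against AKI fits recovered 42% (T lymphocyte-like) and 38% (macrophage-like) of 2-fold changes. Of 4-fold changes they recovered 95% in each class, with 2 and 8 false calls. A gene that was not called can therefore still have changed. Alternatives were another normalization, no filter, each library left out, a replicate block, all libraries in the fit, doublets kept, no batch correction, listed genes kept in the clustering and a mitochondrial limit of 15%. A high cell holds, after thinning to 1500 UMIs, a number of listed UMIs that a Poisson count with the class median reaches with probability under 0.001. Exact intervals are at the 95% level.

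The listed genes, roles, pathway lists and markers were chosen with earlier results of these data known. Named were every listed gene as needed, the 2 with the most UMIs per role and class, those past the test (at most the 12 smallest p per direction), at most 6 pathway genes per comparison and each interferon gene with a UMI. Clusters named by number, single cells and subclass genes were chosen after their values were seen.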

Additional observations from a re-analysis of the deposited data

Results flagged for a closer look

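The CKD against AKI change differed between macrophage-like and T lymphocyte-like cells for 26 listed genes by edgeR's test of the interaction. The differences (macrophage-like change minus T lymphocyte-like change, log2) among signalling genes were −1.26 for Stat2, −0.61 for Irf9, −0.64 for Irf7, −1.85 for Usp18 and −1.13 for Isg15. Among sensors they were −1.95 for Ifih1, −0.92 for Dhx58, −0.71 for Zbp1, −1.43 for Oasl1, −1.43 for Oasl2, −0.60 for Ifi209 and −1.42 for Ifi213. The IFIT genes had −1.52 for Ifit1, −2.39 for Ifit2, −1.66 for Ifit3 and −2.48 for Ifit3b. Other effectors had −1.90 for Rsad2, −1.20 for Bst2, −1.20 for Parp14, −0.80 for Trim30a, −0.83 for Slfn1, −1.36 for Slfn5 and −1.60 for Phf11d. The GTPases had −0.83 for Gbp2, −0.79 for Gbp3 and −1.48 for Gbp5. For each of the 26 the change, not the level, was lower in macrophage-like cells. The makeup of both classes moved with the groups, as given beside the results above.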

How the results depend on the processing

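In T lymphocyte-like cells, CKD against AKI, 1 listed gene was called in the main fit, among 1223 of 13797 genes. The number was 6 with DESeq2 (1790 of 13797 genes) and 5 without a filter on low counts (1743 of 20851). It was 3 with doublets kept (1310 of 14055), 2 without batch correction (1426 of 13767) and 3 at a mitochondrial limit of 15% (1421 of 13748). It was 0 without cycling clusters (4 of 13634), 0 in CD4-like cells (26 of 11645) and 3 in Treg-like cells (235 of 9302). With 1 library left out the number moved with all calls, as given above. In macrophage-like cells the 28 (4118 of 12688 genes) became 0 in the largest cluster (0 of 10074) and 3 without the clusters set aside (138 of 11196). Ifi209 (0.26), Irf7 (0.053) and Zbp1 (0.31) reversed without those clusters. The number changed as well with 1 library left out. AKI against control, the 9 in T lymphocyte-like cells became 15 without a filter, 23 with control and AKI libraries alone and 0 to 23 with 1 library left out, and the 15 in macrophage-like cells became 23 and 2 to 22. The 26 of the interaction became 0 with noncycling T cells and the largest macrophage-like cluster and 8 to 31 with 1 library left out. In the 6 other tested classes, the 0 called became 1 with DESeq2, 18 without a filter, 1 with doublets kept, 1 without batch correction, 1 at a mitochondrial limit of 15% and 2 to 29 with 1 library left out.

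Numbers pair no samples here: same-numbered AKI and CKD libraries share a number alone, and their deviations from the group means had a correlation of 0.258 across genes in T lymphocyte-like and 0.19 in macrophage-like cells. With the replicate block, 1 listed gene was called in T lymphocyte-like cells (Ifih1, lower, in place of Ifi27l2a), among 953 of 13797 genes. In macrophage-like cells 27 were called, among 4130 of 12688. Of the 6 in the other classes, 4 were in proximal tubule-like (465 of 12099 genes) and 2 in thick ascending limb-like cells (281 of 11037).

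The CKD minus AKI share of high T lymphocyte-like cells (1.84 points) became −0.64 without Ifi27l2a, 4.52 without cycling clusters and 0.51 to 3.17 with 1 library left out. That of macrophage-like cells (−7.46) became −5.80 with thinning to 1000 UMIs, −6.66 with a Poisson tail of 0.0001, −10.6 without Ifi27l2a, −8.32 in the largest cluster and −8.04 to −6.88 with 1 library left out. The summed T level (−0.9997 UMIs per 10000) became 4.03 as a mean of each cell's share, 6.30 without cycling clusters and −3.08 to 1.08 with 1 library left out, and the macrophage level (−16.2) became −23.1 at a mitochondrial limit of 15% and −19.0 to −13.3. Settings that leave out clusters or T subclasses were added after seeing the data. In all, 71 of 117 such values stayed near the main one and 46 moved, and the cause was not tested. Ifit1bl1 had 5 to 33 UMIs and Oas2 79 to 98 per library in macrophage-like cells, and the part of depth in their tests was not tested.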
